A study of Homo sapiens with 26 samples.

Results

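The cyclin E, cyclin A and CDK2 axis was followed in ZR751 breast tumors that were treated with a CDK4 inhibitor for 3 days or for 84 to 91 days. It is taken here as 8 named genes, a choice made with earlier results of these data known: the kinase CDK2, its cyclins CCNE1, CCNE2 and CCNA2, the activating phosphatase CDC25A, the kinase subunit and ligase cofactor CKS1B, and the ubiquitin ligase subunits SKP2 and FBXW7. They are 8 of the 30331 named entries of the deposited expression table, and all 8 passed the filter on low values that left 14079 genes for testing. ZR751 is an established human breast cancer line that the study calls hormone receptor positive and HER2 negative. It was implanted under the skin of the back in female NSG mice, a strain that lacks T, B and NK cells, so the tumors stand for 1 cell line in a host without adaptive immunity. Dosing began at an average tumor volume of 150 mm3. The vehicle group is 5 mice given vehicle for 3 days, with DMSO as their treatment label. The sensitive group is 3 mice given atirmociclib (PF-07220060), which inhibits CDK4, for 3 days; each dose was 60 mg/kg by mouth, with 2 doses daily at an interval of 7 hours. The resistant group is 5 mice from a separate study that had the same dosing for 84 to 91 days (label 2040 hours). The 3-day tumors were collected 3 hours after the last dose. How long the mice were treated, which study they came from and resistance itself cannot be told apart wherever resistant tumors are compared, and all samples carry the batch label 1.

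In a dividing cell, cyclin D with CDK4 or CDK6 begins the phosphorylation of the retinoblastoma protein, which frees E2F factors to turn on the genes for cyclin E, cyclin A and CDC25A. Cyclin E with CDK2 then completes that phosphorylation and starts DNA replication, and cyclin A with CDK2 carries the cell through S phase. SKP2 with CKS1B marks the CDK2 inhibitor p27 for destruction, while FBXW7 marks cyclin E. In luminal breast cancer, activity of cyclin E with CDK2 is a known route around inhibitors of CDK4 and CDK6.

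The data are bulk RNA sequencing of 26 libraries, 2 for each mouse (A and B). Levels are in TPM, a share of transcripts that takes gene length and library size into account. The mouse was the replicate, so an SD measures the spread between mice. A p-value sets a difference against a spread between mice that was pooled over the 3 groups and drawn toward that of other genes. The sums per library were 999850 to 999889 TPM, and the depth is unknown because the table holds no read counts. Between 13212 and 13578 genes per library had at least 1 TPM. The 8 luminal breast markers checked were all among the tested genes, with summed levels of 10052 to 17269 TPM in vehicle, 11877 to 13517 in sensitive and 14771 to 18332 in resistant tumors. Of the 19 markers of other cells, the 7 fibroblast markers summed to 7.71 to 13.1, 5.76 to 8.26 and 4.44 to 10.5 TPM in vehicle, sensitive and resistant tumors, with COL1A1 the highest, and DCN was listed at 0 in every vehicle and sensitive tumor. The 5 immune markers summed to 2.98 to 6.25, 4.28 to 7.38 and 6.69 to 15.7 TPM, with CD68 the highest and CD3E listed at 0 in every tumor. The 3 basal markers summed to 1.35 to 8.74, 5.73 to 16.4 and 0.435 to 1.26 TPM, and the 4 endothelial markers to at most 0.645 TPM. The part of these differences in the results was not tested. The markers are human gene entries and the handling of reads from the mouse host is not given. Their low levels therefore do not measure the host cells in a tumor. In bulk tumors, fewer dividing cells and less RNA per cell cannot be told apart.

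The DNA just before the start of 4 of these genes is shown because all 4 genes fell after 3 days of drug and because E2F factors and the CCAAT-binding factor NF-Y are known regulators of cell cycle promoters. The stretches are RefSeq sequence on GRCh38.p14, read 5′ to 3′ on the gene's own strand, and cover the 120 bases before the more upstream of the RefSeq and GENCODE 29 starts. This moved the stretch upstream of the RefSeq start by 93 bases for CCNE1, 50 for CCNA2, 28 for CKS1B and 0 for CDC25A. The bases passed over were not searched. Of the 8 genes, 6 are in the promoter table used. FBXW7 has 4 starts there, and the SKP2 stretch overlaps an exon of LMBRD2, so neither is shown. Capitals mark matches, on either strand, to an E2F-type site (TTTNNCGC) or to CCAAT, which reads ATTGG on the other strand. CCNE1 is chr19:29811778-29811897 (plus), CCNA2 chr4:121823934-121824053 (minus), CDC25A chr3:48188418-48188537 (minus) and CKS1B chr1:154974533-154974652 (plus).
CCNE1: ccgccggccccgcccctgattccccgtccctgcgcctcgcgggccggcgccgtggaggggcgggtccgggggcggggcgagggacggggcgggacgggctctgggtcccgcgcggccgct
CCNA2: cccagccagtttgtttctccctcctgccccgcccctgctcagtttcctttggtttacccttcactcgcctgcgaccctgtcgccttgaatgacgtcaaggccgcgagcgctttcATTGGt
CDC25A: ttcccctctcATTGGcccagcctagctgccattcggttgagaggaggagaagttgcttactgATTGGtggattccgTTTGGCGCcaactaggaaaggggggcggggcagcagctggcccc
CKS1B: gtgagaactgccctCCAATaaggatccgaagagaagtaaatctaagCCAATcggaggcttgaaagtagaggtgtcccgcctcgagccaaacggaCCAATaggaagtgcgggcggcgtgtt

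The E2F-type letters occurred 1 time, in CDC25A, from 44 to 37 bases before the start. CCAAT occurred 3 times in CKS1B, 2 times in CDC25A and 1 time in CCNA2, where it lies 6 to 2 bases before the start. Among 35116 RefSeq promoter stretches of the same length, 2.86% held the E2F-type letters and 20.4% held CCAAT. The cell cycle homology letters TTTGAA, held by 5.70% of stretches, matched none of the 4. The GC box letters GGGCGG, not capitalised here and held by 34.0%, matched 4 times in CCNE1 and 1 time in each of the others, with no overlap with the capitalised matches in these stretches. The CCNE1 stretch was the richest of the 4 in G and C (85.8%), and CKS1B was the lowest (53.3%). A match describes letters and not a bound site.

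The first comparison asked how 3 days of CDK4 inhibition moved the axis. The 3 cyclins, CDC25A, CDK2 and CKS1B fell, with the largest fall in CCNA2. A change is the difference of mean log2(TPM + 1) values, given relative to the median change of all tested genes, which was -0.07 here. The SE and the Benjamini-Hochberg adjusted p over all 14079 genes come from 1 limma fit, and the p tests the fitted difference before that median is taken off, while the 95% intervals are around the change as printed. For FBXW7 in resistant versus vehicle tumors, for example, the fitted difference was -0.19 and the change as printed is -0.05. The log2(TPM + 1) scale understates the change of low genes, so fold differences of the mean TPM are given too. Across all genes 3.16% were called higher and 12.6% lower at an adjusted p under 0.05 (445 and 1767 genes). Scaled by median of ratios the split was 771 higher and 1062 lower, and after quantile normalization it was 938 and 989. Against that background 6 of the 8 genes were called lower and 0 higher, under both of those scalings as well. Those 6 were also the ones whose vehicle and sensitive mice did not overlap, compared with 21.8% of all genes. The median change of the 8 genes was -1.34, where 90% of all tested genes lay between -0.60 and 0.53.

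CDK2, the catalytic subunit, stood at 34.2, 32.6, 35.3, 36.8 and 33.2 TPM in the 5 vehicle tumors and at 20.2, 15.3 and 19.2 TPM in the 3 sensitive tumors. The vehicle tumors were close to each other and all above the sensitive ones. Mean levels were 34.4 ± 1.69 (SD, n = 5) and 18.2 ± 2.59 TPM (SD, n = 3), 1.89-fold lower with the drug, and the log2 change was -0.82 ± 0.11 (SE, limma adjusted p = 8.85e-05).

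CCNA2, the cyclin of S phase and of the approach to mitosis, held 35.8, 28.7, 20.5, 39.3 and 32.0 TPM in vehicle tumors and 1.73, 1.12 and 1.68 TPM in sensitive tumors. Even the lowest vehicle tumor was far above each sensitive one. The mean fell from 31.3 ± 7.19 (SD, n = 5) to 1.51 ± 0.339 TPM (SD, n = 3), or 20.8-fold, and the log2 change of -3.60 ± 0.22 (SE, limma adjusted p = 6.11e-08) had 0.178% of all tested genes below it.

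Both E-type cyclins, which open S phase, fell. CCNE1 held 14.9, 12.5, 10.7, 13.9 and 10.9 TPM in vehicle and 3.53, 2.45 and 3.62 TPM in sensitive tumors. CCNE2 held 12.5, 12.1, 14.6, 12.6 and 14.5 TPM in vehicle and 1.05, 1.57 and 1.63 TPM in sensitive tumors. The vehicle ranges of the E-type cyclins overlapped each other, and in the sensitive tumors each CCNE2 value was below each CCNE1 value. CCNE1 was 3.93-fold lower, with a log2 change of -1.62 ± 0.22 (SE, limma adjusted p = 1.45e-04), and CCNE2 was 9.38-fold lower, with a log2 change of -2.50 ± 0.27 (SE, limma adjusted p = 1.38e-05).

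CDC25A, the phosphatase that removes inhibitory phosphates from CDK2, held 12.9, 8.40, 7.20, 12.6 and 7.39 TPM in vehicle and 1.22, 0.710 and 1.21 TPM in sensitive tumors. Its vehicle tumors split into a pair near 13 TPM and 3 tumors between 7.20 and 8.40, all above the sensitive tumors. It was 9.29-fold lower with the drug, with a log2 change of -2.28 ± 0.24 (SE, limma adjusted p = 1.11e-05). CKS1B, the most abundant of the 8 genes, held 296, 262, 231, 353 and 265 TPM in vehicle and 149, 108 and 124 TPM in sensitive tumors. It was 2.21-fold lower without overlap between groups, with a log2 change of -1.06 ± 0.15 (SE, limma adjusted p = 1.42e-04).

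The ligase subunits were not called in this comparison. SKP2 held 21.0, 20.1, 14.7, 23.9 and 18.3 TPM in vehicle and 17.3, 14.4 and 14.0 TPM in sensitive tumors, and the groups overlapped. Its log2 change was -0.26 ± 0.15 (SE, limma adjusted p = 0.140; 95% interval -0.58 to 0.06); without vehicle mouse 1-5, the lowest of its group, the adjusted p was 0.0386, and with weights per mouse it was 0.0121. FBXW7 held 9.45, 10.2, 10.7, 10.8 and 12.9 TPM in vehicle and 10.6, 10.9 and 8.80 TPM in sensitive tumors. Its log2 change was -0.01 ± 0.11 (SE, limma adjusted p = 0.650), with a 95% interval of -0.24 to 0.22.

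**Figure D1:**
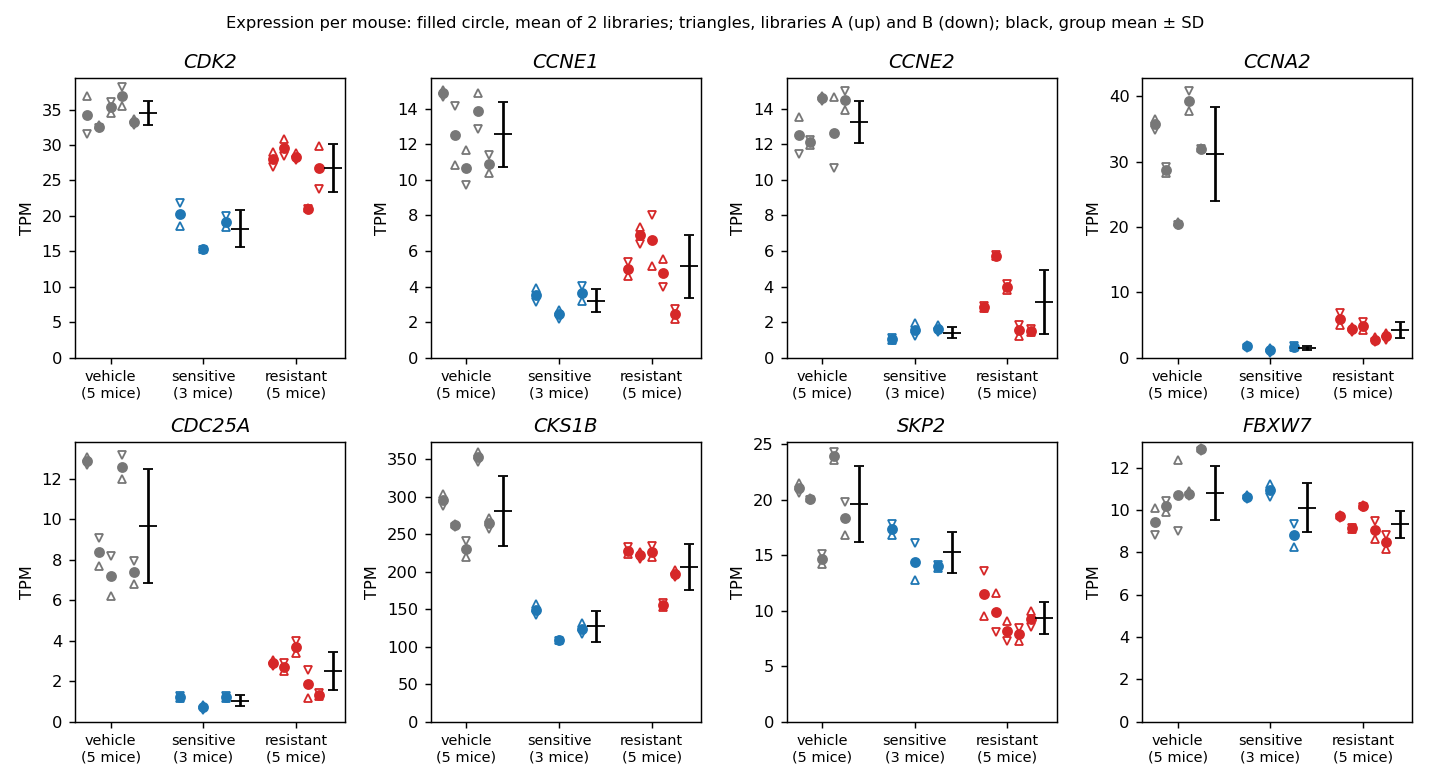
Level in TPM (y axis, from 0) of each of the 8 genes in vehicle (grey, 5 mice), sensitive (blue, 3 mice) and resistant (red, 5 mice) tumors; filled circles are means of libraries A and B of a mouse, triangles are the single libraries, and black bars are group means ± SD over mice. CCNA2 lies between 20.5 and 39.3 TPM in vehicle tumors and at or below 5.93 TPM in all treated tumors, while the 3 groups of FBXW7 overlap.

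The second comparison set resistant against sensitive tumors, both under the drug. CDK2, CCNA2, CDC25A and CKS1B were higher in the resistant tumors and SKP2 was lower, while CCNE1, CCNE2 and FBXW7 were not called. Across all genes 9.56% were called higher and 11.6% lower (1346 and 1631 genes), beside 4 higher and 1 lower of the 8. Median-of-ratios scaling gave 1715 higher and 1331 lower, and quantile normalization gave 1464 and 1806. The 2 groups did not overlap for 5 of the 8 genes, compared with 30.4% of all genes. The median change of the 8 genes was 0.65, where 90% of all tested genes lay between -0.49 and 0.78, and the median change of all genes that was taken off was -0.05.

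CDK2 stood at 28.0, 29.6, 28.4, 21.0 and 26.8 TPM in the 5 resistant tumors, each above the sensitive tumors and below the vehicle tumors. The mean of 26.8 ± 3.35 TPM (SD, n = 5) was 1.47-fold that of sensitive tumors, with a log2 change of 0.57 ± 0.11 (SE, limma adjusted p = 0.00564). CKS1B showed the same order of the 3 groups, at 228, 222, 226, 156 and 197 TPM, with a mean of 206 ± 30.5 TPM (SD, n = 5). It was 1.62-fold higher than in sensitive tumors, with a log2 change of 0.73 ± 0.15 (SE, limma adjusted p = 0.00666). Its highest resistant tumor, mouse 9-3 (228 TPM), was only just below vehicle mouse 1-5 (231 TPM), whose libraries held 220 and 241 TPM.

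CCNA2 held 5.93, 4.34, 4.88, 2.78 and 3.29 TPM in the resistant tumors. All 5 were above the 3 sensitive tumors and far under the vehicle tumors. The mean of 4.24 ± 1.26 TPM (SD, n = 5) was 2.82-fold the sensitive mean, and the log2 change was 1.09 ± 0.22 (SE, limma adjusted p = 0.00524). CDC25A held 2.91, 2.70, 3.70, 1.87 and 1.33 TPM and was 2.40-fold higher than in sensitive tumors, with a log2 change of 0.78 ± 0.24 (SE, limma adjusted p = 0.0428). The CDC25A call was the least stable. Its adjusted p ran from 0.0106 to 0.162 over the 25 alternatives and stayed under 0.05 in 16 of them. It was not called without vehicle mouse 1-4 (0.0543), without any one sensitive mouse (0.0860 for 6-4, 0.162 for 6-5 and 0.0733 for 6-6) or without resistant mouse 9-3 (0.0831), 9-6 (0.0804) or 9-7 (0.0844), nor with no filter (0.0745) or in the A libraries alone (0.143).

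CCNE1 held 4.97, 6.88, 6.61, 4.75 and 2.47 TPM in the resistant tumors, and mouse 9-9 was inside the sensitive range. The log2 change from sensitive tumors was 0.54 ± 0.22 (SE, limma adjusted p = 0.127; 95% interval 0.06 to 1.02), and without mouse 9-9 the adjusted p was 0.0122. CCNE2 held 2.84, 5.74, 4.00, 1.54 and 1.51 TPM, and mice 9-8 and 9-9 were inside the sensitive range while the other 3 were above it. Its log2 change was 0.72 ± 0.27 (SE, limma adjusted p = 0.0839; 95% interval 0.15 to 1.30). The adjusted p was 0.0359 without mouse 9-8, 0.0354 without mouse 9-9 and 0.0393 in the B libraries alone. The paired libraries fitted singly, with the mouse as a random effect and the letter as a block, gave 0.0295 for CCNE2, and without the letter 0.0264.

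SKP2, the p27 ligase subunit, went the other way. It held 11.5, 9.86, 8.17, 7.86 and 9.25 TPM in the resistant tumors, all below the 3 sensitive tumors. The mean of 9.33 ± 1.47 TPM (SD, n = 5) was 1.63-fold lower than the sensitive mean of 15.2 ± 1.82 TPM (SD, n = 3), with a log2 change of -0.62 ± 0.15 (SE, limma adjusted p = 0.00749). FBXW7 held 9.695, 9.13, 10.2, 9.07 and 8.48 TPM, overlapping both other groups, and its log2 change was -0.06 ± 0.11 (SE, limma adjusted p = 0.530; 95% interval -0.29 to 0.17).

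**Figure D2:**
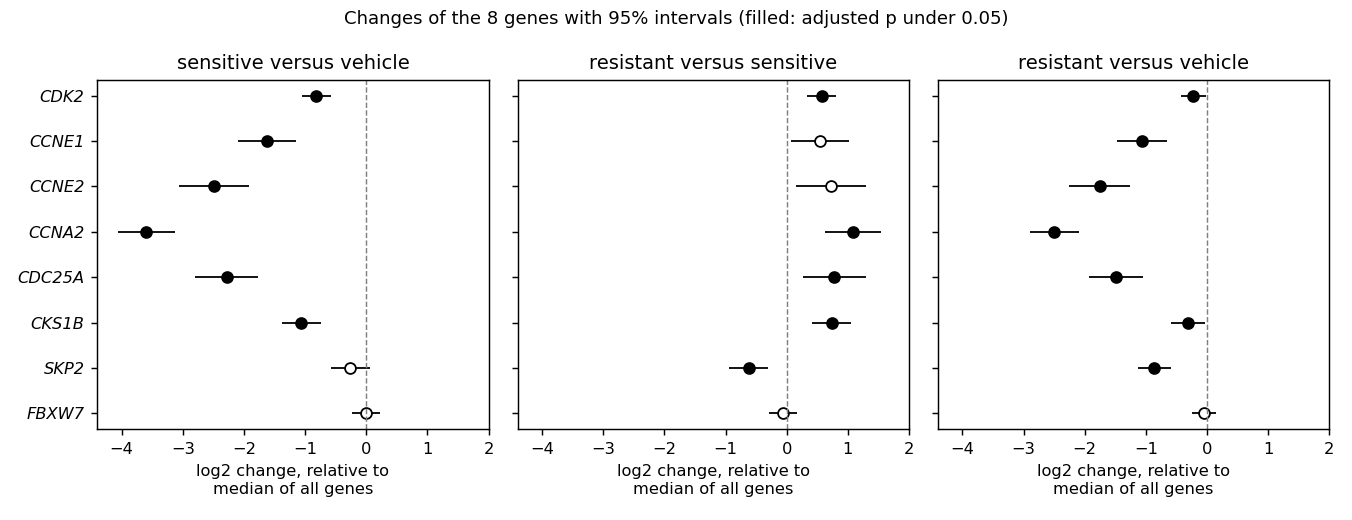
Log2 change of each of the 8 genes relative to the median of all tested genes (x axis), in the 3 comparisons; points are the limma estimates, bars their 95% intervals, and filled points have an adjusted p under 0.05. The largest fall is that of CCNA2 in sensitive versus vehicle tumors (-3.60), and SKP2 is the gene called lower in resistant versus sensitive tumors.

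The third comparison set resistant against vehicle tumors and shares its mice with the other comparisons. Here 7 of the 8 genes were lower in the resistant tumors, FBXW7 being the exception. Across all genes 11.5% were called higher and 32.5% lower (1624 and 4570 genes), with 2553 and 2432 after median-of-ratios scaling and 2333 and 2773 after quantile normalization. Under those scalings 5 of the 8 were called lower: CDK2 (adjusted p = 0.0867 and 0.1003) and CKS1B (0.101 and 0.0544) no longer passed. The resistant and vehicle mice did not overlap for 7 of the 8 genes, though only narrowly so for CKS1B, compared with 27.3% of all genes. The median change of the 8 genes was -0.96, where 90% of all genes lay between -0.66 and 0.84, and the median change of all genes that was taken off was -0.14.

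CCNA2 remained lowest against vehicle, 7.37-fold lower, with a log2 change of -2.49 ± 0.19 (SE, limma adjusted p = 3.94e-07) that had 0.0994% of all tested genes below it. CCNE2 was 4.24-fold lower (log2 change -1.75 ± 0.23, limma adjusted p = 3.95e-05), CDC25A 3.88-fold lower (-1.48 ± 0.21, 5.70e-05) and CCNE1 2.45-fold lower (-1.06 ± 0.19, 3.28e-04). SKP2 was 2.10-fold lower, with a log2 change of -0.86 ± 0.13 (SE, limma adjusted p = 5.54e-05), so it was called in both comparisons that include the resistant tumors. CDK2 and CKS1B came closest to vehicle among the genes called, at 1.29-fold and 1.37-fold lower, with log2 changes of -0.23 ± 0.10 (SE, limma adjusted p = 0.00825) and -0.31 ± 0.13 (SE, limma adjusted p = 0.0130). FBXW7 had a log2 change of -0.05 ± 0.09 (SE, limma adjusted p = 0.120; 95% interval -0.25 to 0.15).

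The 6 genes that fell in 3 days stood between the sensitive and vehicle means in the resistant tumors. The share of the fall regained is the resistant minus sensitive difference over the vehicle minus sensitive difference of log2(TPM + 1) means, a description with no test, since both parts share the sensitive mice. It was 59.4% ± 21.0 for CDK2 and 60.7% ± 20.3 for CKS1B (SD over resistant mice, n = 5). It was 31.2% ± 17.1 for CDC25A, 29.4% ± 27.8 for CCNE1, 28.4% ± 9.52 for CCNA2 and 26.4% ± 24.2 for CCNE2, so the spread between mice was wide beside the differences between genes. MKI67, a marker of dividing cells, regained 35.2%. Leaving out any one mouse, of any group, gave 53.4% to 68.4% for CDK2 and 56.5% to 69.2% for CKS1B, and at most 40.6% for the other 4 genes (CCNE1). Under median-of-ratios scaling and quantile normalization the shares were 72.7% and 73.6% for CDK2 and 71.3% and 65.1% for CKS1B.

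The resistant tumors differed among themselves in a similar order for most of these genes. Mice 9-3, 9-6 and 9-7 were the highest 3 of 5 for CDK2, CCNE1, CCNE2, CCNA2, CDC25A, CKS1B and FBXW7, and mice 9-8 and 9-9 were the lowest. For FBXW7 the split was narrow, at 9.13 TPM in mouse 9-6 and 9.07 in mouse 9-8. It was also narrow for CCNE1, at 4.97 TPM in mouse 9-3 and 4.75 in mouse 9-8. Both gaps were smaller than the difference between the libraries of mouse 9-8 (8.65 and 9.49 TPM for FBXW7, 5.55 and 3.95 for CCNE1). SKP2 departed from this order, with 9-9 the third highest and 9-7 the fourth. MKI67 had 8.47, 7.69 and 8.91 TPM in mice 9-3, 9-6 and 9-7, and 2.36 and 3.79 TPM in mice 9-8 and 9-9, against a vehicle range of 36.2 to 58.2 and a sensitive range of 0.970 to 1.99 TPM. CCNE2 regained 58.3% of its fall in mouse 9-6 and 41.4% in mouse 9-7, but 3.05% in mouse 9-8 and 2.77% in mouse 9-9. CCNE1 in mouse 9-9 was below the sensitive mean, a share of -15.6%. CDK2 ranged from 23.2% in mouse 9-8 to 76.2% in mouse 9-6. Libraries A and B of a mouse differed by a mean of 0.08 log2 units for CKS1B up to 0.25 for CCNE1, and by at most 0.73, for CDC25A in mouse 9-8.

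**Figure D3:**
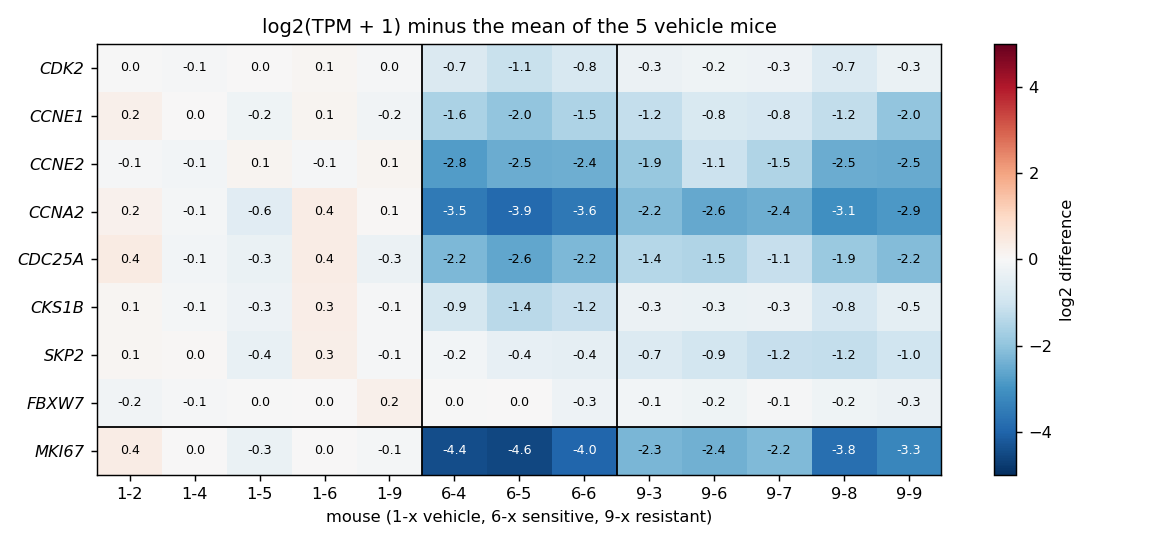
Difference of log2(TPM + 1) from the mean of the 5 vehicle mice (colour and printed value, log2 units) for the 8 genes and MKI67 (rows) in each of the 13 mice (columns). Resistant mice 9-8 and 9-9 are lower than 9-3, 9-6 and 9-7 in 7 of the 8 genes, though only narrowly so for mouse 9-8 in FBXW7 and CCNE1. SKP2 is lower in all 5 resistant mice than in the 3 sensitive mice.

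The order of the levels within a tumor, on the TPM scale that corrects for length, differed between vehicle and treated tumors. In vehicle tumors it ran CKS1B, CDK2, CCNA2, SKP2, CCNE2, CCNE1, FBXW7 and CDC25A from high to low; of these neighbours CKS1B and CDK2, and SKP2 and CCNE2, did not overlap over mice, and the other pairs did. In both treated groups it ran CKS1B, CDK2, SKP2, FBXW7, CCNE1, CCNA2, CCNE2 and CDC25A. CCNA2 moved from the third place to the sixth and FBXW7 from the seventh to the fourth. The last 3 genes overlapped with their neighbours in sensitive tumors, as did the last 4 in resistant tumors, and CDK2 and SKP2 overlapped in sensitive and SKP2 and FBXW7 in resistant tumors. The order of these pairs is not resolved.

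Ratios within a tumor describe the balance of the parts and were not tested. The log2 ratio of CCNE2 to CCNE1 was 0.09 ± 0.32 (SD, n = 5) in vehicle, -1.18 ± 0.56 (SD, n = 3) in sensitive and -0.83 ± 0.50 (SD, n = 5) in resistant tumors, and every treated tumor was below every vehicle tumor, though mouse 9-6 (-0.26) only just below vehicle mouse 1-2 (-0.25). CCND1, the cyclin that partners CDK4, exceeded the summed E-type cyclins 8.78-fold to 11.4-fold in vehicle, 79.0-fold to 112-fold in sensitive and 43.0-fold to 194-fold in resistant tumors. The mean CCND1 level was 263 ± 34.6 (SD, n = 5), 420 ± 51.2 (SD, n = 3) and 727 ± 129 TPM (SD, n = 5). The log2 ratio of SKP2 to CDKN1B, the gene of p27, was -2.23 ± 0.35 (SD, n = 5) in vehicle, -2.13 ± 0.10 (SD, n = 3) in sensitive and -2.75 ± 0.35 (SD, n = 5) in resistant tumors, and the resistant tumors overlapped both other groups through mouse 9-3 (-2.22).

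**Figure D4:**
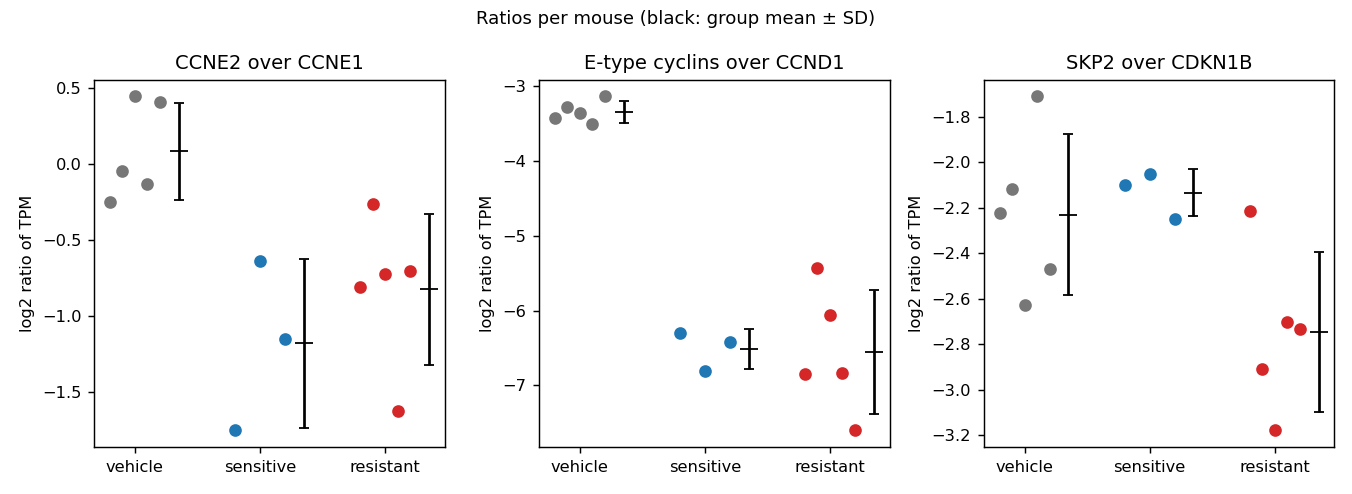
Log2 ratio of TPM values per mouse (points) for CCNE2 over CCNE1, the sum of CCNE1 and CCNE2 over CCND1, and SKP2 over CDKN1B, in vehicle, sensitive and resistant tumors, with group means ± SD in black. The E-type cyclins over CCND1 lie between -3.51 and -3.13 in vehicle tumors and at or below -5.43 in all treated tumors.

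The other genes around CDK2 were taken from a list of 47, of which 46 were tested; CCNA1, the germ-cell cyclin A, had means of at most 0.465 TPM and was not. In sensitive versus vehicle tumors 30 were called lower and 1 higher, beside 12.6% and 3.16% of all genes. In resistant versus sensitive tumors 15 were higher and 4 lower, beside 9.56% and 11.6% of all genes, so the lower calls were no more frequent than the background. In resistant versus vehicle tumors 32 were lower and 0 higher, beside 32.5% and 11.5% of all genes. The median changes were -0.75, 0.27 and -0.41. Leaving out 1 mouse gave 9 to 20 called higher in resistant versus sensitive tumors, the lowest without sensitive mouse 6-5, and 2 to 5 called lower, with 2 without sensitive mouse 6-4 or resistant mouse 9-3, 9-6 or 9-7. Under the scalings 26 were lower in the first comparison and 28 in the third.

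Among the partners and activators, 6 of 7 were lower after 3 days, 4 were higher in resistant than in sensitive tumors, and 6 were lower than vehicle in resistant tumors. The shares of all genes were 12.6%, 9.56% and 32.5%. CCNH, counted as lower in both comparisons with vehicle, was not called in either under the scalings. Its limma adjusted p was 0.0662 and 0.224 under median-of-ratios scaling, and 0.0785 and 0.243 under quantile normalization. CDC25C, 1 of the 4 higher, was not called in 9 alternatives, among them the fits without sensitive mouse 6-5 (0.104) or 6-6 (0.123). CDC25B, also among the 4, was not called without sensitive mouse 6-4 (0.0573). Of the 6 lower after 3 days, MNAT1 was not called in the A libraries (0.0748) or without sensitive mouse 6-5 (0.0729). CDK1, the mitotic kinase that also pairs with cyclin A, had 63.9 ± 9.44 TPM in vehicle (SD, n = 5), 3.76 ± 2.01 in sensitive (SD, n = 3) and 13.7 ± 6.07 in resistant tumors (SD, n = 5). Its log2 changes were -3.79 ± 0.35 (limma adjusted p = 3.68e-06) for sensitive versus vehicle and 1.66 ± 0.35 (0.00717) for resistant versus sensitive tumors. CKS2, the sister of CKS1B, went from 169 ± 25.5 to 59.2 ± 1.97 and 96.7 ± 15.2 TPM, with log2 changes of -1.42 ± 0.13 (limma adjusted p = 3.00e-06) and 0.73 ± 0.13 (0.00383).

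Of the 8 inhibitors and inhibitory kinases, 5 were lower after 3 days. In resistant versus sensitive tumors 2 were higher and 1 lower, and 5 were lower than vehicle in resistant tumors. Across all genes 12.6% were lower after 3 days, 9.56% higher in resistant versus sensitive tumors and 32.5% lower in resistant versus vehicle tumors. With 11.6% of all genes lower in resistant versus sensitive tumors, 1 of 8 is near the background. That gene, RBL2 (limma adjusted p = 0.0356), was not called without sensitive mouse 6-4 (0.202) or resistant mouse 9-3 (0.0709), 9-6 (0.0732) or 9-7 (0.0579), with no filter (0.0504) or in the B libraries (0.0640). Of the 2 higher, PKMYT1 (0.0282) was not called without sensitive mouse 6-5 (0.155) or resistant mouse 9-3 (0.0583), 9-6 (0.0596) or 9-7 (0.0555), with no filter (0.0527) or in the fit of 2 groups (0.0557), and the other was CDKN3 (0.00351). CDKN1B, the gene of p27, had 91.1 ± 9.20, 66.9 ± 7.32 and 62.8 ± 10.9 TPM in vehicle, sensitive and resistant tumors. Its log2 change from vehicle was -0.37 ± 0.13 (limma adjusted p = 0.0336) in sensitive and -0.41 ± 0.11 (0.00185) in resistant tumors, and it was -0.05 ± 0.13 (0.618) between the treated groups. The first of these was not called under median-of-ratios scaling (0.0645), under quantile normalization (0.0800), with no filter (0.0555), or without vehicle mouse 1-2 (0.0670), vehicle mouse 1-9 (0.0738), sensitive mouse 6-5 (0.177) or sensitive mouse 6-6 (0.110). CDKN1A, the gene of p21, was not called in any comparison (limma adjusted p = 0.0796, 0.221 and 0.390), with vehicle tumors from 38.5 to 113 TPM; for sensitive versus vehicle the value was 0.00743 without vehicle mouse 1-5, 0.00275 with weights per mouse, 0.00901 over 26 libraries and 0.0109 with the letter as a block, and for resistant versus sensitive it was 0.0380 with weights. WEE1, the kinase that places the phosphates CDC25A removes, fell by 1.12 ± 0.20 on the log2 scale after 3 days (limma adjusted p = 0.00121) and stood at 11.2 ± 2.01 and 11.9 ± 3.59 TPM in sensitive and resistant tumors.

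Of the 10 genes of the ubiquitin system of cyclins E and A and p27, 4 were lower after 3 days. In resistant versus sensitive tumors 3 were lower and 1 higher, and 7 were lower than vehicle in resistant tumors. Across all genes 12.6% were called lower after 3 days, 11.6% in resistant versus sensitive tumors and 32.5% in resistant versus vehicle tumors. FZR1, 1 of the 7, was not called under median-of-ratios scaling (limma adjusted p = 0.0705) or quantile normalization (0.136). After 3 days RBX1, the ring subunit of the SKP2 and FBXW7 ligases, was not called under median-of-ratios scaling (adjusted p = 0.0570), quantile normalization (0.0669) or in the A libraries (0.0669), and USP37 was not called in 9 alternatives, among them median-of-ratios scaling (0.0732), quantile normalization (0.139) and the fits without vehicle mouse 1-4 (0.0513), vehicle mouse 1-9 (0.0671), sensitive mouse 6-5 (0.103) or sensitive mouse 6-6 (0.151). In resistant versus sensitive tumors 1 of 10 higher is near the 9.56% of all genes, and that call, RBX1, was lost in the A libraries (0.102) and without sensitive mouse 6-4 (0.0582) or 6-5 (0.0638). CUL1, the scaffold of the same ligases and 1 of the 3 lower (0.0455), was not called in 11 alternatives, among them median-of-ratios scaling (0.0677) and the fits without vehicle mouse 1-4 (0.0566), without sensitive mouse 6-4 (0.165) or 6-5 (0.147) or without resistant mouse 9-3 (0.0695), 9-6 (0.0958), 9-7 (0.0784) or 9-8 (0.0580). CCNF, an F-box cyclin, went from 35.6 ± 4.88 TPM in vehicle to 16.4 ± 2.38 in sensitive and 10.6 ± 1.26 in resistant tumors. Like SKP2 it was lower in resistant than in sensitive tumors, with a log2 change of -0.53 ± 0.13 (limma adjusted p = 0.00767). USP37, a deubiquitinase of cyclin A, had 8.02 ± 0.633, 6.08 ± 0.454 and 3.86 ± 0.340 TPM, with a log2 change of -0.50 ± 0.10 (limma adjusted p = 0.00278) for resistant versus sensitive tumors. FBXO5, the inhibitor of the ligase that destroys cyclin A, held 14.1 ± 1.66, 3.41 ± 0.684 and 3.15 ± 0.953 TPM, and its log2 change from sensitive to resistant tumors was -0.06 ± 0.18 (limma adjusted p = 0.708).

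Among the substrates and origin-firing genes 9 of 10 were lower after 3 days. Of the same 10, 4 were higher in resistant than in sensitive tumors, and 9 were lower than vehicle in resistant tumors. The shares of all genes were 12.6%, 9.56% and 32.5%, in that order. Of the 4 higher, CDC7 was not called in 10 alternatives and MCM10 in 8, both without sensitive mouse 6-5 (limma adjusted p = 0.185 and 0.149). In that comparison TICRR, CDT1 and TOPBP1 were newly called in 9, 4 and 2 alternatives. Of the 9 lower than vehicle, TOPBP1 was not called in 17, among them median-of-ratios scaling (0.277) and quantile normalization (0.327). CDC45, part of the replicative helicase, had 31.0 ± 6.12 TPM in vehicle, 10.1 ± 4.65 in sensitive and 32.1 ± 11.3 in resistant tumors. Its log2 change from sensitive tumors was 1.64 ± 0.34 (limma adjusted p = 0.00604), and from vehicle it was 0.12 ± 0.29 (0.959). DBF4, the activator of the kinase CDC7, had 11.3 ± 0.868, 5.99 ± 0.653 and 5.49 ± 0.292 TPM and was not called between the treated groups (limma adjusted p = 0.458).

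Among the 11 transcription factors upstream of cyclins E and A, 6 were lower and 1 higher after 3 days, 4 were higher in resistant than in sensitive tumors, and 5 were lower than vehicle in resistant tumors. The shares of all genes were 12.6%, 3.16%, 9.56% and 32.5%, in that order. Of the 5, TFDP1 was not called in 14 alternatives, among them median-of-ratios scaling (limma adjusted p = 0.432) and quantile normalization (0.283). In that comparison MYC was newly called higher in 4. After 3 days TFDP1 was newly called lower in 8. Between the treated groups E2F2 was not called in 3, while E2F7 was newly called higher in 6, E2F8 higher in 1 and MYC lower in 1. E2F1 had 53.0 ± 10.8 TPM in vehicle, 18.3 ± 8.64 in sensitive and 56.6 ± 22.6 in resistant tumors, with log2 changes of -1.52 ± 0.35 (limma adjusted p = 0.00763), 1.65 ± 0.35 (0.00681) and, for resistant versus vehicle, 0.16 ± 0.30 (0.965; 95% interval -0.49 to 0.80). Without sensitive mouse 6-5 the first of these had an adjusted p of 0.0576. MYBL2, which acts with the MuvB complex, had 185 ± 29.3, 28.0 ± 8.81 and 155 ± 45.6 TPM, with a log2 change of 2.46 ± 0.23 (limma adjusted p = 6.22e-05) from sensitive to resistant tumors and -0.16 ± 0.20 (0.252; 95% interval -0.60 to 0.28) from vehicle. FOXM1, its partner at genes of mitosis, had 142 ± 21.3, 11.2 ± 4.13 and 37.5 ± 14.4 TPM and stayed lower than vehicle in resistant tumors, with a log2 change of -1.83 ± 0.26 (limma adjusted p = 6.35e-05). MYC was the gene called higher after 3 days, with a log2 change of 0.63 ± 0.14 (limma adjusted p = 0.0142), a call that was lost without sensitive mouse 6-5 (0.0910) or 6-6 (0.0717).

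**Figure D5:**
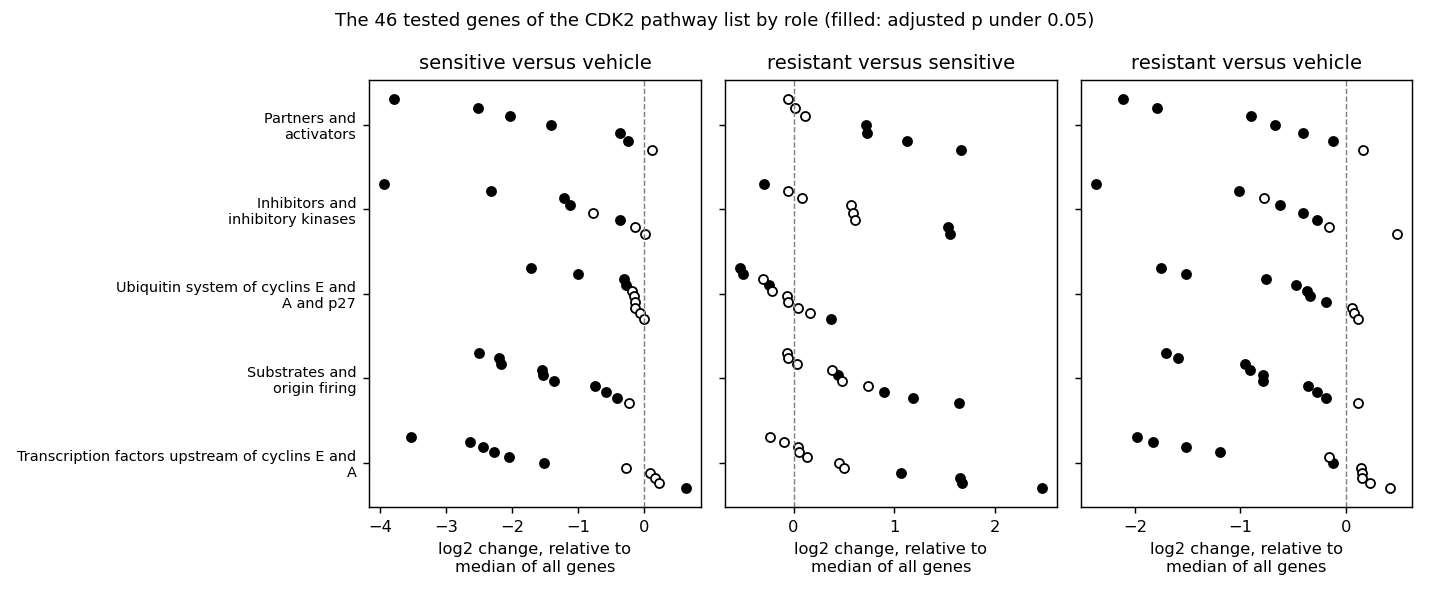
Log2 change relative to the median of all tested genes (x axis) of the 46 tested genes of the CDK2 list by role (rows), in the 3 comparisons; each point is a gene, ordered within its role by its change, and filled points have an adjusted p under 0.05. In sensitive versus vehicle tumors 30 points are called lower, and in resistant versus sensitive tumors 15 are called higher.

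The tested genes whose levels moved most like each of the 8 were found by the smallest root mean square difference of log2(TPM + 1) over the 13 mice, each gene centred on its own mean. CCNA2 was nearest to AURKB (0.161), CDCA3 and DLGAP5, and AURKB, a mitotic kinase, held 27.6, 1.11 and 4.10 TPM in vehicle, sensitive and resistant tumors. CDC25A was nearest to MCM10 (0.213), KNSTRN and BUB1B, CCNE1 to STIL (0.221), TMPO-AS1 and CENPN, and CCNE2 to ARHGEF39 (0.256), CDCA2 and ZNF367. CDK2 was nearest to SUV39H1 (0.0838), WDR34 and SAE1, and CKS1B to NCAPD3 (0.111), DNA2 and H2AFZ. SKP2 was nearest to MGC4836 (0.166), CPNE2 and NVL, and NVL held 110, 86.2 and 55.9 TPM. FBXW7 was nearest to RFWD2 (0.0788), MFF and UBE2G1. Within the 8, the closest pair was CDK2 and CKS1B (0.156), the E-type cyclins differed by 0.477, and the farthest pair was CCNA2 and FBXW7 (1.49). A gene that varies little is near others that vary little, so the differences are not comparable between the 8 genes. The likeness is a description over 13 mice that share the treatment groups.

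Gene positions are from GENCODE 29 on GRCh38. CDK2 is at chr12:55966769-55972784 on the plus strand, CCNE1 at chr19:29811898-29824308 (plus) and CCNA2 at chr4:121816444-121823933 (minus). CDC25A is at chr3:48157146-48188402 (minus), CKS1B at chr1:154974653-154979249 (plus), SKP2 at chr5:36151989-36184319 (plus) and FBXW7 at chr4:152320544-152536063 (minus). CDK2 overlaps PMEL on the opposite strand, CCNE2 overlaps INTS8 and NDUFAF6, CCNA2 overlaps EXOSC9, and FBXW7 overlaps FBXW7-AS1. The sources used here do not say whether reads were counted by strand, so reads in those overlaps could be shared. EXOSC9 held 31.3, 21.3 and 27.5 TPM in vehicle, sensitive and resistant tumors, against 31.3, 1.51 and 4.24 TPM for CCNA2. CKS1B has 6 pseudogenes named for it in the annotation and 0 of them in the table, so its level is uncertain to the extent that reads of the copies were assigned to it.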

How the data were processed

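Total RNA of 26 tumor libraries from 13 mice was sequenced. The authors deposited TPM values in 1 table, in which each library is scaled to a fixed total; all columns were matched to samples by name (0 left over). FastQC, STAR, HTSeq and RSEM and the builds GRCh38 and GRCm38 are named, without versions or roles, per the submitters' processing notes. The sources used here give neither the handling of mouse reads nor the step at which libraries A and B of a mouse divide, and the spread between A and B may be technical. The table has 30332 entries; the 1 without a name (1.49 to 5.51 TPM) was left out.

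The log2(TPM + 1) values of A and B were averaged per mouse, while TPM levels are means of the A and B values. Genes with a mean of at least 1 TPM in at least 3 mice were kept. One limma model (3.58.1, R 4.3.3) with a trend covered the 13 mice and the 3 comparisons, two-sided, with Benjamini-Hochberg adjustment over all genes tested. It was tested on simulated data. Changes are relative to the median change of all genes because scaling moved that median by more than 0.1; SEs and adjusted p-values were left as fitted. The alternatives were a pseudocount of 0.1, other filters (none, or 5 TPM), median-of-ratios scaling, quantile normalization, robust or weighted fits, fits of 2 groups, of 1 library a mouse and of all 26 libraries, and leaving out each mouse.

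The 8 genes, the 47 pathway genes and the markers were chosen with earlier results of these data known. Named are the 8 genes; from the pathway list, per comparison and role, called genes, at most 4 by adjusted p, with CDKN1B and CDKN1A in any case; for each of the 8, the 3 genes of most similar pattern; and CCND1 and MKI67. The choice among these, and COL1A1, CD68, DCN, CD3E, CCNA1 and the overlapping genes, were named after their values were seen.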

Additional observations from a re-analysis of the deposited data

How the results depend on the processing

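Of the repeated log2 changes of the 8 genes, 570 kept their direction and their side of the threshold, 13 were no longer called, 8 were newly called, and 9, all of FBXW7, which was not called in any of them, changed sign. FBXW7 moved to 0.0059 (filter at 5 TPM), 0.0060 (quantile normalization) and 0.0524 (B libraries) in sensitive versus vehicle, and to 0.0160 (B libraries) in resistant versus vehicle tumors. Leaving out 1 mouse gave FBXW7 -0.0784 to 0.0679 in sensitive versus vehicle, -0.140 to 0.0143 in resistant versus sensitive and -0.0907 to 0.0048 in resistant versus vehicle tumors. Counts over all genes moved more. For sensitive versus vehicle tumors, genes called higher were 771 under median-of-ratios scaling, 938 under quantile normalization, 1023 with weights per mouse, 239 in the fit of 2 groups, 243 in the A libraries, and 99 (without mouse 6-5) to 544 with 1 mouse left out, also 110 without 6-6 and 288 without 1-9. Those called lower were 1062, 989 and 3390 under the first 3 of these, and 802 (without 6-5) to 1911 with 1 mouse left out, also 964 without 6-6. For resistant versus sensitive tumors, 2036 were higher with weights, 675 (without 6-5) to 1594 with 1 mouse left out and 890 without 6-4; 1086 were lower in the A libraries, and 690 (without 6-4) to 1977 with 1 mouse left out, also 799 without 6-5. For resistant versus vehicle tumors, 2553 were higher and 2432 lower under median-of-ratios scaling, and 2773 lower under quantile normalization. With all 26 libraries, the mouse as a random effect and the letter as a replicate block, 2147 genes were lower in sensitive versus vehicle tumors, and the block fit changed 1 call of the 8 genes, CCNE2. Each mouse has 1 library of each letter, so the letter is shared across mice and pairs no mice. Of the genes nearest in pattern, 1 of 3 was shared for CDK2 and FBXW7 under quantile normalization and for CCNE2, CCNA2 and CDC25A with a pseudocount of 0.1. TPM holds no depth, so no counting error is given for the low values of CDC25A and CCNA2.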
